A study of Arabidopsis thaliana with 60 samples.

Results

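The 5 genes described here encode parts of the ATG8 conjugation step of autophagy in Arabidopsis thaliana: APG8A (AT4G21980), ATG8B (AT4G04620), ATG8F (AT4G16520), ATG8H (AT3G06420) and ATG3 (AT5G61500). They were chosen by name, as the probe sets annotated to 1 gene with one of these symbols. Earlier results of these data were known at that choice, so the counts of called genes below are descriptions. This gave 5 of the 22746 probe sets other than controls, 1 for each gene, and all 5 were bright enough to be tested. Their signal was followed across 20 sets of leaf samples, each with 3 arrays.

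Autophagy is the route by which a cell wraps part of its cytoplasm in a double membrane, the autophagosome, and delivers it to the vacuole to be broken down. ATG8 is a small ubiquitin-like protein that is attached to the lipid phosphatidylethanolamine of the growing membrane, where it helps the membrane to form and binds cargo receptors. ATG3 is the conjugating enzyme that carries ATG8 to the lipid, after the activating enzyme ATG7 and with the ATG12, ATG5 and ATG16 complex, and the protease ATG4 trims new ATG8 and frees it again. In leaves the pathway is known for recycling protein and chloroplast material during ageing and nutrient shortage, and plants lacking it yellow early.

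Col-0, the wild-type accession, supplied the main series, under constant light on soil, at 23 °C and a humidity of 65%. Its sets were cotyledons, leaves 1 and 2, leaf 4 at a length of 1 cm, rosette leaves 2, 4, 6, 8, 10 and 12, leaf 7 cut into petiole, proximal blade and distal blade, cauline leaves (the leaves of the inflorescence stem) and senescing leaves. The line gl1T, in the Col-0 background where the labels state one, was sampled as leaf 4 at 1 cm and as leaf 12 on the same substrate and in the same light. Vegetative rosettes, in sets numbered 87, 89 and 90, grew in short days of 10 h light and 14 h dark at 22 °C, on soil where a substrate is given, and a set labelled leaf grew in long days at 22 °C on 1xMS medium with 1% sucrose. Apart from the growth substrate, which both lines share, the labels note soil contamination of the collected tissue for Col-0 leaf 4 at 1 cm and for no other set. They give no plant age and no stage of senescence.

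Signal is the deposited linear array intensity, on a scale where the trimmed mean of every array is 100. It is not a length-corrected amount, so no gene's level is set against another's. Correlations between arrays of a set lay between 0.982 and 0.990. Actin 3'-to-5' ratios, a measure of RNA integrity, ran from 8.77 to 11.7 on senescing arrays and from 2.95 to 10.7 on those of rosette leaves 2 to 12, while the GAPDH ratios were 1.14 to 1.22 on senescing arrays. Summed photosynthesis signal, over 6 of 8 listed genes with a probe set, was 6384 to 6711 in senescing leaves and 17373 to 25067 in rosette leaves 2 to 12. Of 7 listed senescence markers 3 had a probe set, and their sum was 685 to 713 in senescing, 337 to 374 in cauline and 153 to 306 in rosette leaves. The sum was mostly WRKY53, at a mean of 462 in senescing leaves. SAG101, at a mean of 66.4 in cauline leaves against 80.9 in rosette leaf 4, did not follow the sum in cauline leaves. In senescing leaves SAG101 had a mean of 89.3, and its arrays (79.1 to 97.7) overlapped those of rosette leaf 4 (74.0 to 93.5). The part of RNA integrity in the differences below was not tested. In whole-leaf samples, fewer cells of a type and less RNA per cell cannot be told apart.

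Across the 20 sets, senescing leaves had the highest mean signal of APG8A, ATG8B, ATG8H and ATG3, and cauline leaves the highest of ATG8F. ATG8B had the widest span, 14.0-fold from Col-0 leaf 4 at 1 cm (20.1 ± 0.682, SD, n = 3) to senescing leaves (282 ± 8.85, n = 3). On all 3 of those 1 cm arrays ATG8B lay below the array's 40th percentile (21.2 to 22.3), so the low end is near background. APG8A spanned 7.38-fold, from short-day set 87 at 80.5 to senescing leaves at 594. ATG8H spanned 5.28-fold, from Col-0 leaf 4 at 1 cm at 25.7 to senescing leaves at 136. Its first 1 cm array, at 16.1, lay below the array's 40th percentile (22.2), and the 1 cm range overlapped those of both gl1T sets. The conjugating enzyme ATG3 spanned 3.39-fold, with its lowest mean, 108, in rosette leaf 6. ATG8F spanned 3.34-fold, from 508 in Col-0 leaf 4 at 1 cm to 1699 in cauline leaves. By mean signal, both leaf 4 at 1 cm and the senescing leaves thus mark ends of the range for more than 1 of the ATG8 genes.

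**Figure D1:**
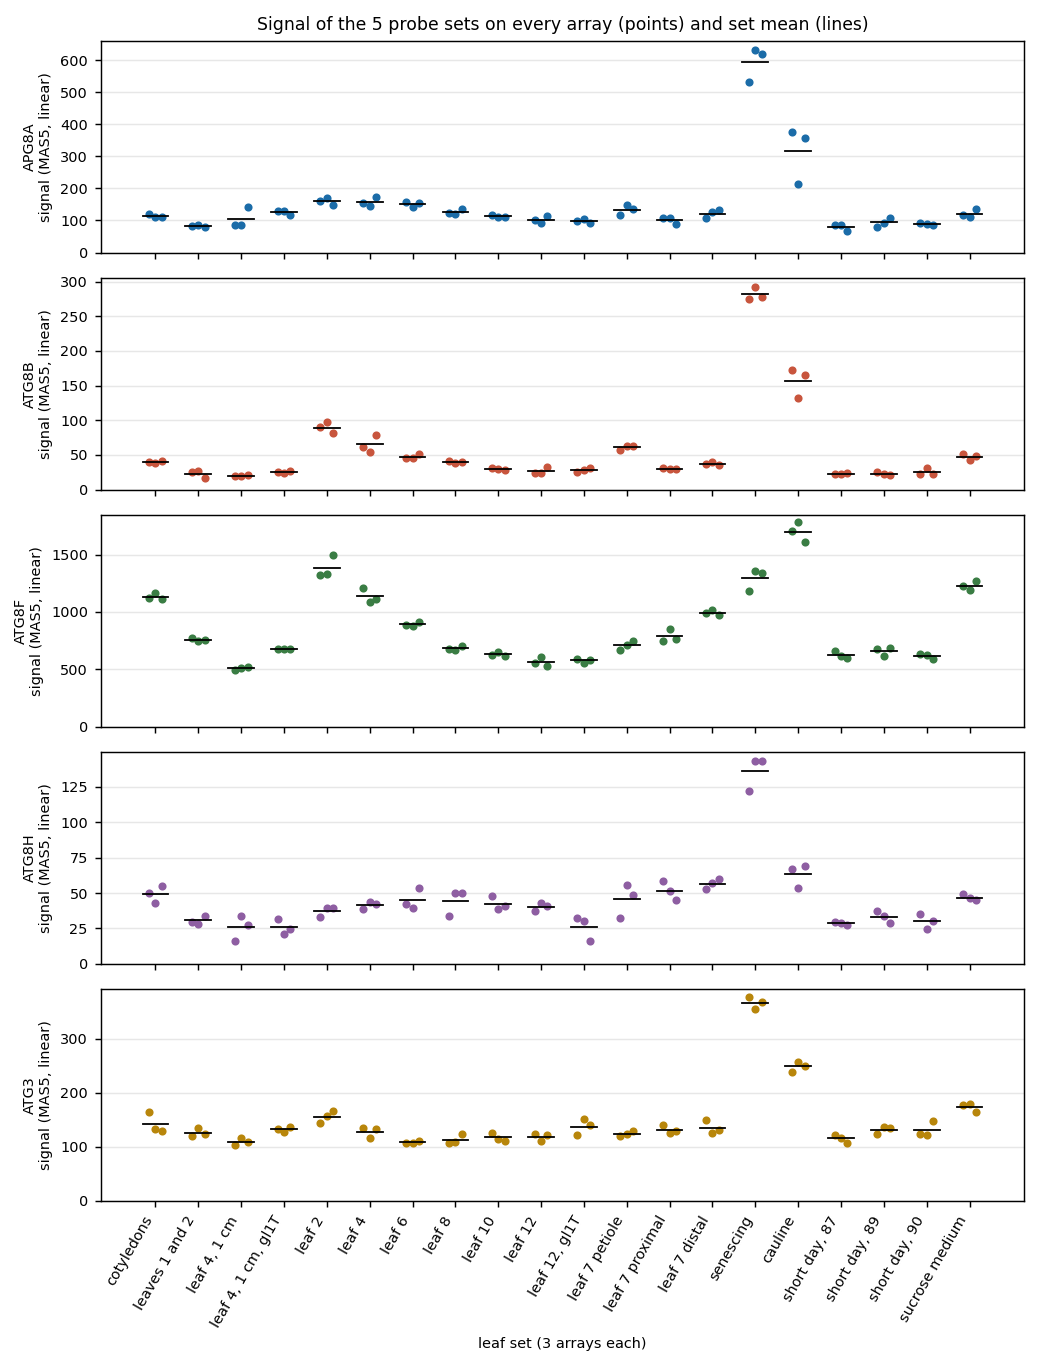
Signal of each gene (y axis, MAS5 intensity, linear from 0, 1 panel a gene) on every array of the 20 sets (x axis, points), with a short line at the mean of 3 arrays. Senescing leaves hold the highest points of APG8A, ATG8B, ATG8H and ATG3, and cauline leaves those of ATG8F.

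When the sets were ordered by mean signal, most neighbours in that order overlapped in their ranges over 3 arrays and so did not differ beyond their spread. For APG8A, 2 of 19 neighbouring pairs were apart, senescing from cauline leaves and cauline leaves from rosette leaf 2. ATG3 also had 2, the same top steps, with rosette leaf 2 replaced by the sucrose-medium leaf as the third set. ATG8H had 1, between senescing and cauline leaves, and its other 18 pairs overlapped. ATG8B had 6 and ATG8F had 5, so for these genes some neighbours among the other leaf sets were apart as well. Sets that are not neighbours in the order can also be apart, and these are not counted here. The SD of the 20 set means, on the log2 scale, was 0.90 for ATG8B, 0.65 for APG8A, 0.50 for ATG8F and ATG8H and 0.41 for ATG3, against pooled SDs between arrays of a set of 0.07 for ATG8F to 0.22 for ATG8H. Among all tested probe sets, 89.6% had a smaller SD of set means than ATG8B and 49.8% a smaller one than ATG3.

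The first comparison set senescing leaves against the mean of rosette leaves 2 to 12, all in Col-0. APG8A, ATG8B, ATG8H and ATG3 rose, by between 2.89-fold and 5.55-fold, and ATG8F was 1.54-fold higher without reaching the size required of a call. A call here is an adjusted p below 0.05 over all tested probe sets together with a log2 difference of at least 1. By this rule 4 of the 5 genes were called higher, against 16.4% of all tested probe sets. All 5 were higher by the adjusted p alone, as were 44.9% of tested probe sets. The median log2 difference was 1.57 over the 5 genes and 0.09 over all tested.

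ATG8B, a ubiquitin-like ATG8 protein, read 275, 292 and 278 on the senescing arrays. In rosette leaves 2 to 12 it read between 23.4 and 97.0, so no array of either side overlapped. Its log2 difference was 2.47 ± 0.092 (SE), the largest of the 5, with an adjusted p of 8.01e-31. APG8A, another ATG8 protein, read 532, 632 and 619 in senescing leaves and from 92.4 to 173 in the rosette leaves, again without overlap. Its log2 difference was 2.10 ± 0.10, with an adjusted p of 1.8e-25. ATG8H belongs to the branch of plant ATG8 proteins that ends at the glycine used for lipid attachment and so needs no trimming by ATG4. It read 122, 143 and 143 in senescing leaves and from 32.9 to 53.4 in the rosette leaves. The senescing arrays lay above all rosette arrays, with a log2 difference of 1.57 ± 0.13 (adjusted p = 4.21e-16).

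ATG3 read 378, 355 and 368 on the senescing arrays, and its rosette leaves lay between 106 and 166. The groups were far apart and the arrays of each close together, with a log2 difference of 1.53 ± 0.064 and an adjusted p of 1.29e-28. ATG8F behaved differently in size. It read 1182, 1360 and 1339 in senescing leaves, within the range of 525 to 1497 that the rosette leaves covered. Its log2 difference from the rosette mean was 0.62 ± 0.046 (adjusted p = 5.19e-18), and 1 array of leaf 2, at 1497, lay above the highest senescing array. With quantile normalization, which forces all arrays to one distribution of signal, the same difference was 1.15 and was called.

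The rosette mean pools leaves of differing age, and leaf 2, the oldest of them by position, was taken as a partner of its own. Against leaf 2, 4 of 5 genes were called higher in senescing leaves, as were 10.6% of tested probe sets, and the same 4 were higher by the adjusted p alone (38.4% of tested). The log2 differences were 1.85 ± 0.13 for APG8A (leaf 2 at 162, 171 and 147), 1.59 ± 0.12 for ATG8B (leaf 2 at 89.9, 97.0 and 81.5), 1.71 ± 0.17 for ATG8H (leaf 2 at 32.9, 39.5 and 39.4) and 1.20 ± 0.083 for ATG3 (leaf 2 at 145, 158 and 166). These 4 genes therefore kept a separation of more than 2-fold from the oldest rosette leaf. ATG8F had a log2 difference of -0.10, with a 95% interval from -0.22 to 0.02 and an adjusted p of 0.148, and leaf 2 read 1319, 1333 and 1497. With quantile normalization that difference was 0.28 (adjusted p = 3.9e-05), since the mean signal became 1908 ± 173 in senescing leaves and 1566 ± 102 in leaf 2, so the order of these sets for ATG8F depends on the scaling.

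**Figure D2:**
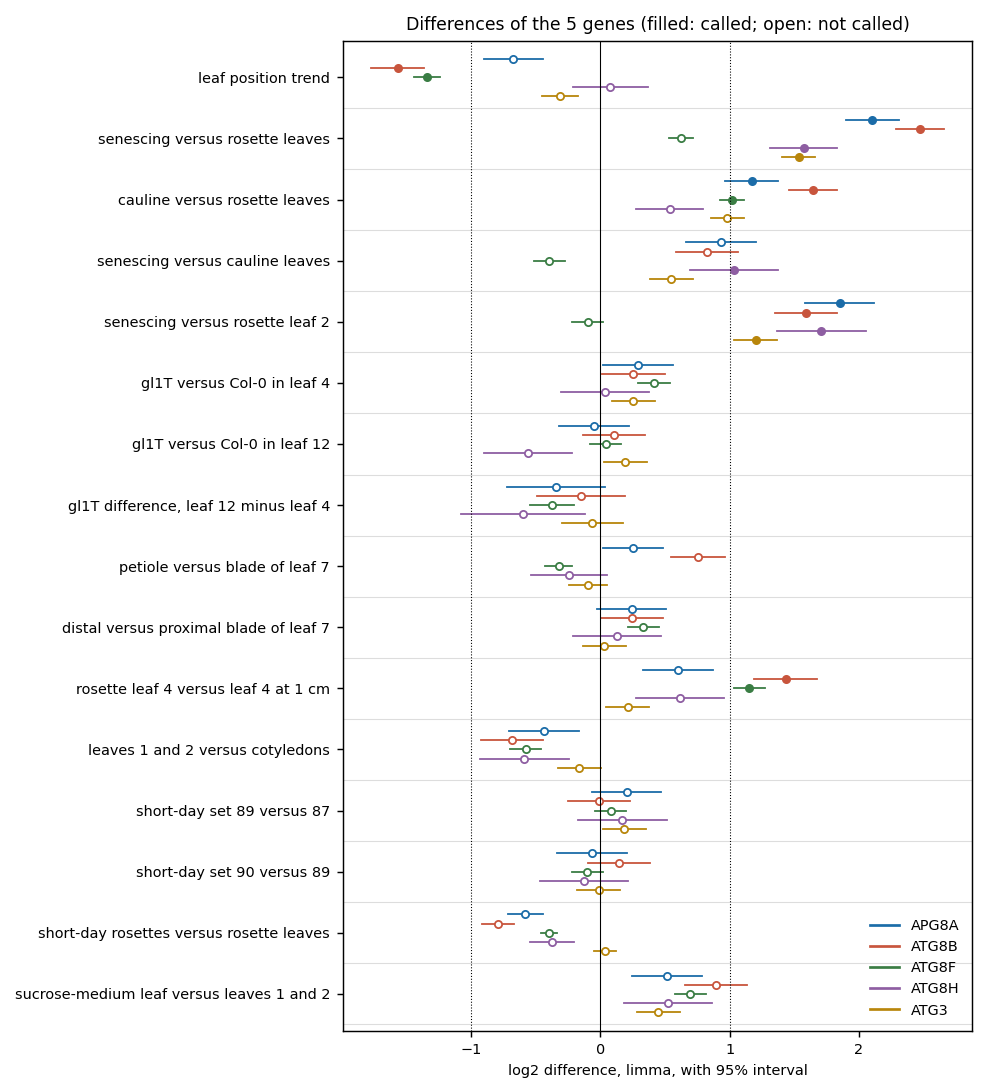
Log2 differences of the 5 genes (x axis) in the 16 comparisons (y axis), with lines for 95% intervals, filled points for called and open points for uncalled differences, and dotted lines at -1 and 1. Senescing against rosette leaves holds the points furthest to the right, and ATG8F against leaf 2 lies at -0.10 with an interval from -0.22 to 0.02.

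Cauline leaves were compared with the same rosette mean. APG8A, ATG8B and ATG8F rose by 2.25-fold, 3.13-fold and 2.03-fold, while ATG3 was 1.98-fold and ATG8H 1.45-fold higher without being called. Thus 3 of 5 genes were called higher, against 7.09% of tested probe sets, and 5 of 5 by the adjusted p alone, against 39.1%. The median log2 difference was 1.02 over the 5 genes and 0.05 over all tested. Senescing and cauline leaves share the rosette arrays as their partner, so the 2 comparisons are not independent of each other.

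ATG8B read 173, 133 and 166 in cauline leaves, above every rosette array, with a log2 difference of 1.65 ± 0.092 and an adjusted p of 1.56e-22. ATG8F read 1703, 1781 and 1613, also above every rosette array, with a log2 difference of 1.02 ± 0.046 and an adjusted p of 2.24e-26. APG8A read 377, 215 and 357, with a log2 difference of 1.17 ± 0.10 and an adjusted p of 7.41e-15. The second cauline array was thus well below the others for APG8A, though still above the highest rosette array at 173. ATG3 read 238, 257 and 250, above all rosette arrays, and its log2 difference of 0.98 ± 0.064 (adjusted p = 7.24e-20) lay just under the size required. ATG8H read 67.2, 53.5 and 69.3, with a log2 difference of 0.54 ± 0.13 (adjusted p = 0.000266), and its second array lay at the level of the highest rosette array, 53.4.

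The number of calls ran from 2 to 4 as single arrays were left out, and it depended more on the partner. The second cauline array was the lowest of its set for APG8A, ATG8B and ATG8H and the highest for ATG8F and ATG3. Without it APG8A was at 1.42, ATG8B at 1.76, ATG8H at 0.64 and ATG3 at 0.96, while ATG8F at 0.98 was no longer called, so that APG8A and ATG8B were called. Without the first cauline array ATG3 was called as well, at 1.01, which made 4. Against rosette leaf 2 alone none of the 5 was called in the limma fit: the differences were 0.92 for APG8A, 0.77 for ATG8B and 0.30 for ATG8F, and all 5 still had an adjusted p below 0.05 there. Against rosette leaf 12 alone 4 were called, with ATG3 at 1.03.

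Senescing leaves were then set against cauline leaves directly. ATG8H rose by 2.05-fold, and it was the 1 of 5 genes called higher, against 6.58% of tested probe sets. The log2 difference of ATG8H was 1.04 ± 0.17 (adjusted p = 5.74e-07). APG8A differed by 0.93 ± 0.13, ATG8B by 0.83 ± 0.12 and ATG3 by 0.55 ± 0.083, none of them called, and ATG8F by -0.39 ± 0.060, so that ATG8F stood higher in cauline leaves. By the adjusted p alone 4 genes were higher (32% of tested) and 1 lower (29.9% of tested). The call on ATG8H rested on single arrays, since its difference was under 1 without the second or the third senescing array (0.9994 and 0.9982) or without the second cauline array (0.93), and from 0 to 2 genes were called as arrays were left out. With quantile normalization ATG8H was at 0.95, not called, APG8A at 1.12, called, and ATG8F at -0.09.

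Along the rosette of Col-0, from leaf 2 to leaf 12, ATG8B and ATG8F fell with leaf number, by 2.96-fold and 2.53-fold on the fitted line. Leaf 12, the youngest sampled, was about 1 cm long. The trend called 2 of 5 genes lower, against 11.4% of tested probe sets, and by the adjusted p alone 4 of 5, against 35.9%. The median fitted log2 difference, leaf 12 minus leaf 2, was -0.67 over the 5 genes and 0.01 over all tested.

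ATG8B had mean signals of 89.5 ± 7.77 in leaf 2, 65.4 ± 12.4 in leaf 4, 47.6 ± 3.51 in leaf 6, 39.9 ± 1.38 in leaf 8, 29.9 ± 1.95 in leaf 10 and 26.4 ± 5.08 in leaf 12 (SD, n = 3 each). Each mean was below the one before it, and the fitted log2 difference was -1.57 ± 0.10 (adjusted p = 5.93e-20). On the first leaf 12 array ATG8B read 23.4, below that array's 40th percentile of 23.9, so the low end is near background. Under other settings the fitted difference ran from -1.74 to -1.16. ATG8F had 1383 ± 98.9 in leaf 2, 1137 ± 67.4 in leaf 4, 894 ± 17.2 in leaf 6, 685 ± 17.5 in leaf 8, 630 ± 21 in leaf 10 and 561 ± 40.7 in leaf 12. The order was again unbroken, at -1.34 ± 0.051 (adjusted p = 8.08e-30).

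APG8A had 160 ± 12.3 in leaf 2, 157 ± 14.1 in leaf 4, 151 ± 6.98 in leaf 6, 127 ± 8.30 in leaf 8, 114 ± 3.98 in leaf 10 and 102 ± 10.1 in leaf 12. Its fitted difference of -0.67 ± 0.11 (adjusted p = 6.31e-07) stayed under the size of a call, and leaves 2, 4 and 6 overlapped. ATG3 ran from 156 ± 10.4 in leaf 2 through 128 ± 10.3 in leaf 4 to 108 ± 2.16 in leaf 6 and then to 113, 117 and 119 in leaves 8, 10 and 12, so its lowest mean was in the middle of the rosette. The fitted difference of ATG3 was -0.31 ± 0.070 (adjusted p = 0.000104). ATG8H kept between 37.3 and 45.0 in all 6 leaves, with a fitted difference of 0.08, a 95% interval from -0.21 to 0.37 and an adjusted p of 0.631.

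**Figure D3:**
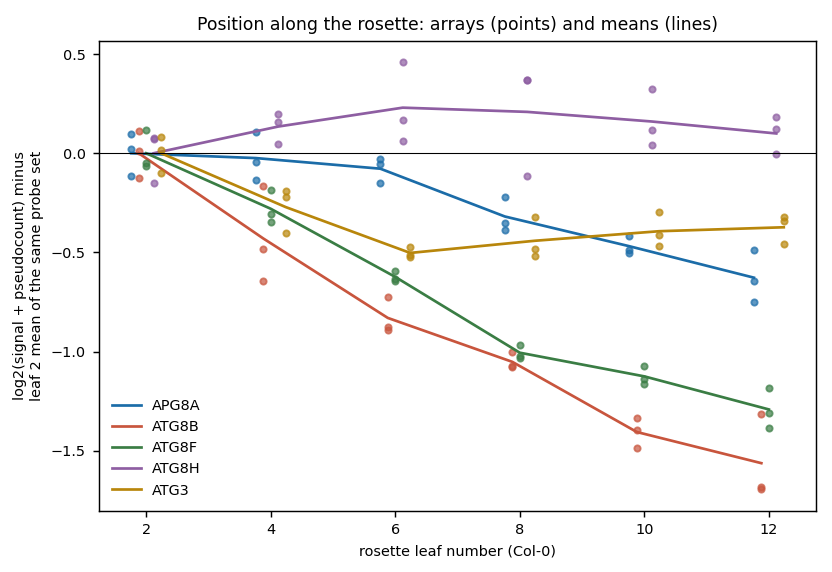
Log2 signal of the 5 genes, with the pseudocount added and the leaf 2 mean of the same gene subtracted (y axis), against rosette leaf number (x axis), with points for arrays and lines through the means of 3. ATG8B and ATG8F step down at every leaf from 2 to 12, while the ATG8H means stay at or slightly above that of leaf 2.

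Rosette leaf 4 was compared with leaf 4 at 1 cm, both Col-0. ATG8B and ATG8F rose in the later leaf, by 2.70-fold and 2.22-fold, so that 2 of 5 genes were called higher, against 12.9% of tested probe sets. All 5 were higher by the adjusted p alone, against 32.4%. ATG8B read 20.4, 19.3 and 20.6 in the 1 cm leaf and 62.2, 55.0 and 79.0 in the rosette leaf. The 1 cm values lay below the 40th percentile of their arrays, near background, so the size of this fold is uncertain. The groups did not overlap, and the log2 difference was 1.43 ± 0.12 (adjusted p = 1.42e-15). ATG8F read 494, 513 and 517 in the 1 cm leaf and 1213, 1083 and 1116 in the rosette leaf, a log2 difference of 1.15 ± 0.060 (adjusted p = 1.1e-23). Both encode ATG8 proteins that carry residues beyond the glycine, which ATG4 removes.

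APG8A read 86.2, 85.9 and 141 in the 1 cm leaf and 155, 145 and 173 in the rosette leaf, with a log2 difference of 0.60 ± 0.13 (adjusted p = 9.39e-05). The third of the 1 cm arrays was close to the rosette leaf while the others were far below it. ATG8H had a log2 difference of 0.62 ± 0.17 (adjusted p = 0.0012), from 16.1, 33.9 and 27.2 to 38.6, 43.4 and 42.2. Without the first 1 cm array, the lowest, it was 0.38 (adjusted p = 0.0548). ATG3 had a difference of 0.21 ± 0.083 (adjusted p = 0.0212), which was 0.15 with an adjusted p of 0.101 under quantile normalization. As arrays were left out it ran from 0.17 to 0.28. Its adjusted p was above 0.05, at 0.0509 to 0.099, without the first or the third array of either set. The contamination of the collected tissue is labelled for the 1 cm set and not for rosette leaf 4, and its part in these values was not tested.

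The gl1T line was compared with Col-0 in both of the leaves sampled from it. In leaf 4 at 1 cm none of the 5 genes was called in the limma fit, against 3.95% of tested probe sets called in either direction, and 4 had an unadjusted p below 0.05. By the adjusted p alone 2 were higher, against 15.3%. ATG8F read 678, 681 and 678 in gl1T, above the 494 to 517 of Col-0, with a log2 difference of 0.42 ± 0.060 (adjusted p = 1.23e-07). ATG3 read 133, 128 and 136 in gl1T and 104, 117 and 108 in Col-0, with a difference of 0.26 ± 0.083 (adjusted p = 0.0134). Both genes were thus separated from Col-0 on all arrays, by less than a call requires. The ATG3 difference rested on single arrays, at 0.22 (adjusted p = 0.0744) without the first Col-0 array and at 0.23 (adjusted p = 0.0532) without the third gl1T array. APG8A depended on 1 array in the other direction, at 0.29 (adjusted p = 0.0893) with all arrays. Without the third Col-0 array it was at 0.52 (adjusted p = 0.00228). Both lines grew on soil, but the collected Col-0 tissue is labelled as contaminated with it and the gl1T tissue is not, so genotype and this contamination cannot be told apart. Markers also differed between the sets: the 3 senescence markers summed to 194 to 208 in gl1T and 41.1 to 49.5 in Col-0, and PYK10, a root-abundant beta-glucosidase, read 10.1 to 12.6 in gl1T and 49.9 to 53.8 in Col-0. Their part was not tested.

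In leaf 12 none of the 5 was called, against 3.82% of tested probe sets, and 2 had an unadjusted p below 0.05. ATG8H was the 1 gene lower by the adjusted p alone, against 11.5%, at -0.56 ± 0.17 (adjusted p = 0.00933). It read 32.6, 29.9 and 16.1 in gl1T and 37.0, 42.9 and 41.0 in Col-0, and the third gl1T array was the lowest by far. Without that array the difference was -0.31 (adjusted p = 0.201). The first gl1T array, with the highest ATG8H signal of its set, had a GAPDH 3'-to-5' ratio of 3.23, the highest of the series, and without it the difference was -0.71. The gl1T difference in leaf 12 minus that in leaf 4 called none of the 5, against 8.2% of tested probe sets, with 2 at an unadjusted p below 0.05. ATG8F was the 1 gene lower by the adjusted p alone in that contrast, against 13.2%, at -0.37 ± 0.085 (adjusted p = 0.000421). ATG8H was close to that limit, at -0.60 ± 0.24 (adjusted p = 0.0503). With quantile normalization it was at -0.67 (adjusted p = 0.0342). APG8A, at -0.34 (adjusted p = 0.172), was at -0.56 (adjusted p = 0.0135) without the third Col-0 array of leaf 4 at 1 cm.

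Within leaf 7 the petiole was compared with the blade. None of the 5 genes was called, against 6.93% of tested probe sets, and 3 had an unadjusted p below 0.05. By the adjusted p alone 1 gene was higher (29.5% of tested) and 1 lower (24.1% of tested) in the petiole. ATG8B read 56.9, 63.4 and 62.5 in the petiole, 31.0, 29.8 and 30.5 in the proximal blade and 36.5, 39.4 and 35.7 in the distal blade. The petiole lay above both blade parts, with a log2 difference of 0.75 ± 0.10 (adjusted p = 1.59e-08). ATG8F went the other way at -0.32 ± 0.052 (adjusted p = 6.08e-07), with 665, 710 and 750 in the petiole, against 749 to 852 in the proximal and 973 to 1017 in the distal blade.

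Between the distal and the proximal blade none of the 5 was called, against 0.62% of tested probe sets, with 2 at an unadjusted p below 0.05. ATG8F, at 0.33 ± 0.060 (adjusted p = 4.67e-05), was the 1 gene higher in the distal part by the adjusted p alone, against 8.58%. Its arrays of the blade parts did not overlap. The petiole, proximal and distal means were 709, 790 and 994, but the highest petiole array (750) lay above the lowest proximal array (749). Petiole and proximal blade were not compared on their own.

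In the seedling, leaves 1 and 2 were compared with cotyledons. None of the 5 genes was called, against 11.5% of tested probe sets, and 4 had an unadjusted p below 0.05. In leaves 1 and 2, 4 were lower by the adjusted p alone, against 28.1%. ATG8B read 24.8, 27.3 and 16.9 in leaves 1 and 2 and 40.6, 38.7 and 41.1 in cotyledons, with a log2 difference of -0.68 ± 0.12 (adjusted p = 2.55e-06). The value of 16.9 lay below the 40th percentile of its array, near background. The other 3 were ATG8H at -0.59 ± 0.17 (adjusted p = 0.00285), ATG8F at -0.58 ± 0.060 (adjusted p = 5.38e-12) and APG8A at -0.44 ± 0.13 (adjusted p = 0.00485). Cotyledon and leaf arrays did not overlap for any of these 4 ATG8 genes. The difference of the conjugating enzyme ATG3 was -0.16, with a 95% interval from -0.33 to 0.0035 and an adjusted p of 0.0927.

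The leaf grown on sucrose medium was set against leaves 1 and 2 on soil, sets that also differ in day length, temperature and leaf label, so medium cannot be told apart from these. None of the 5 was called, against 7.21% of tested probe sets, while all 5 had an unadjusted p below 0.05. By the adjusted p alone all 5 were higher on sucrose medium, against 25.6% of tested. ATG8B read 52.1, 42.1 and 48.5 on sucrose medium, a log2 difference of 0.90 ± 0.12 (adjusted p = 9.52e-09). With a pseudocount of 1 it was 1.04, and without the second array of leaves 1 and 2 it was 1.00, both called. ATG8F read 1228, 1190 and 1271 against 770, 749 and 752, a difference of 0.70 ± 0.060 (adjusted p = 1.89e-14). ATG8H, APG8A and ATG3 differed by 0.53, 0.52 and 0.45, and for all 5 genes the arrays of these sets did not overlap. PYK10 read 804 to 854 on sucrose medium and 65.7 to 80.2 in leaves 1 and 2, and the actin 3'-to-5' ratios were 1.76 to 1.85 and 2.12 to 4.86. Their part was not tested.

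Short-day rosettes were compared with rosette leaves 2 to 12, sets that differ in light, temperature and organ sampled. None of the 5 was called, against 16.8% of tested probe sets, and 4 had an unadjusted p below 0.05. Of the 5, 4 were lower by the adjusted p alone, against 37.3%. The differences were -0.79 ± 0.060 for ATG8B, -0.58 ± 0.067 for APG8A, -0.40 ± 0.030 for ATG8F and -0.38 ± 0.085 for ATG8H. ATG3 differed by 0.03, with a 95% interval from -0.05 to 0.12 and an adjusted p of 0.447. The 4 ATG8 genes thus had the same sign and the conjugating enzyme did not move with them. PYK10, the 1 of 5 listed root markers with a probe set, read 831 to 2118 in the short-day rosettes against 4.89 to 146 in the rosette leaves, and the part of root tissue was not tested.

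Among the short-day sets themselves none of the 5 genes was called. Between sets 89 and 87 this stood against 3.25% of tested probe sets, with 1 gene, ATG3, at an unadjusted p below 0.05 (log2 difference 0.18, adjusted p = 0.0666). Between sets 90 and 89 it stood against 0.43%, with 0 genes at an unadjusted p below 0.05. All 9 short-day arrays of ATG8B lay between 20.4 and 31.9 and all 9 of ATG8F between 588 and 687.

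Of 49 autophagy genes listed from general knowledge of the pathway, 21 had a probe set annotated to 1 gene. Beside the 5 genes above, 17 probe sets of 16 genes were tested. In senescing leaves 8 of these 17 were called higher, against the 16.4% of all tested probe sets, and 0 lower, with a median log2 difference of 0.95. By the adjusted p alone 15 were higher, against 44.9% of all tested. The ATG1 kinase complex, which starts autophagosome formation, had 3 of 7 probe sets higher: the kinases ATG1A (1.58) and ATG1C (1.28, its other probe set 0.90 and not called), and the subunit ATG101 (1.23). Of the other 5 ATG8 family members, 2 were higher, ATG8G (1.43) and ATG8I (1.15; AT3G15580, under the older symbol APG8H in the array's annotation and distinct from ATG8H). ATG4B (1.05), a protease that processes ATG8, and ATG14A (1.34), a subunit of the lipid kinase complex that marks the site of formation, were also higher. The other probe set of ATG14A did not pass the signal filter and was not tested. RAPTOR1 (1.65) is a subunit of the TOR kinase complex, which is known to hold autophagy back, and it too was higher. Against rosette leaf 2 alone, 4 of the 17 were called higher in senescing leaves, against 10.6% of all tested probe sets. None of the other 5 ATG8 genes was among these, and neither was ATG4B. By the adjusted p alone 13 of the 17 were higher, against 38.4%. An ATG8 gene was the 1 lower by that measure, and no share of all tested probe sets is given for it.

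**Figure D4:**
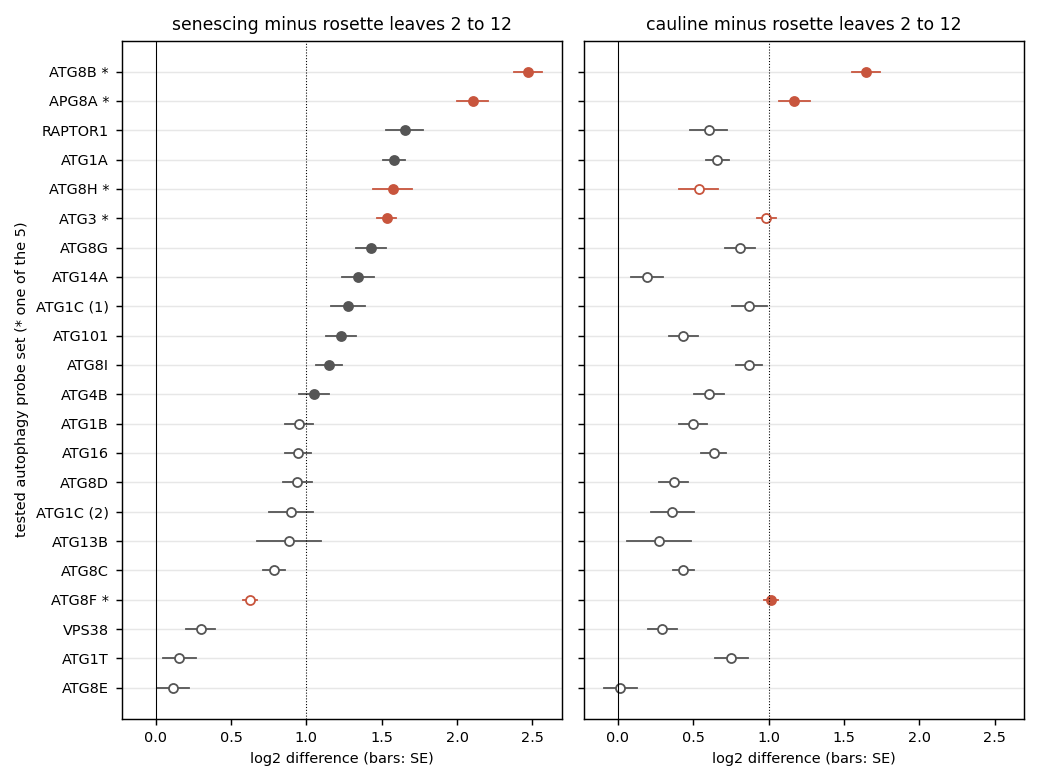
Log2 differences from the mean of rosette leaves 2 to 12 (x axis; lines are SE, filled points are called, the dotted line is at 1) of the 22 tested autophagy probe sets (y axis), in senescing and in cauline leaves, with an asterisk on the 5 genes described here. ATG8B and APG8A have the largest differences in senescing leaves, at 2.47 and 2.10.

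In cauline leaves none of the 17 other probe sets was called in the limma fit, against 7.09% of all tested called higher, with a median log2 difference of 0.50. By the adjusted p alone 14 were higher, against 39.1% of all tested. Against cauline leaves, senescing leaves had 2 of the 17 called higher, ATG14A (1.15) and RAPTOR1 (1.05), against 6.58% of all tested. Along the rosette 1 of the 17 was called lower, ATG8I at -1.26, a share below the 11.4% of all tested probe sets. From leaf 4 at 1 cm to rosette leaf 4, a further 3 ATG8 genes were called higher (12.9% of all tested), ATG8I (1.29), ATG8E (1.27) and ATG8D (1.24). ATG8E was the 1 of the 17 called lower in gl1T leaf 12 (-1.05), against 3.82% of all tested called in either direction. It was also the 1 of the 17 called in the gl1T difference in leaf 12 minus that in leaf 4 (-1.77), against 8.2%. ATG8D was the 1 of the 17 called lower in short-day rosettes (-1.23), against 16.8% of all tested called in either direction.

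How far the 5 genes moved together was described by Pearson's r of their 20 set means on the log2 scale, which share their arrays and weight the senescing and cauline sets heavily. APG8A and ATG8B were the closest pair, at 0.95 over 20 sets and 0.86 over the 18 sets without senescing and cauline leaves. ATG8B and ATG8F had 0.80 and 0.78, so this pair, too, kept its likeness among ordinary leaves. APG8A and ATG3 had 0.87 over 20 sets and 0.16 over 18, and ATG8H and ATG3 had 0.77 and 0.19. The likeness of ATG3 to APG8A and ATG8H thus came with the senescing and cauline sets. ATG8 genes resemble one another in sequence, and cross-hybridisation between their probe sets was not tested.

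Outside the autophagy list, 8598 tested probe sets with 1 named gene were ranked for likeness to each of the 5 genes by the same r over 20 set means. APG8A was followed most closely by DER2.2 (AT4G04860), a derlin of the endoplasmic reticulum, at 0.98, then by AT5G18900 and AT1G51550. ATG8B was followed by AT2G41380 at 0.97, then by DER2.2 and AT1G56700. ATG8F was followed by AT1G80180 at 0.95, then by AT1G01490 and AT1G16840. ATG3 was followed by UBC32 (AT3G17000), a ubiquitin-conjugating enzyme, at 0.96, then by AT4G28570 and AT3G43230. ATG8H had the fewest close matches, with AT5G06560 at 0.94 ahead of AT1G04780 and AT3G46930. An r above 0.9 was reached by 2.66% of the compared probe sets for ATG8B, 2.16% for APG8A, 1.18% for ATG3, 0.372% for ATG8F and 0.012% for ATG8H.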

How the data were processed

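Single-colour arrays measured RNA of 20 sets of leaf samples, 3 arrays each. Values are the deposited linear intensity per probe set, made by the authors with MAS5, per the submitters' processing notes. The MAS5 version and settings were not given in the sources used here. All arrays share a scale on which the mean without the outer 2% at each end is 100. The number of arrays limits the precision.

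Sets were read from the labels. For the first array of set 14 the tissue field says leaf 4, but the title places it with leaf 6, where it was kept (lowest r there 0.984, highest r with leaf 4 0.982). Nothing in the labels says that arrays of a set are separate plants, so p-values reflect only the spread between these samples, possibly technical. Replicate letters did not pair the arrays.

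After removal of 64 controls from 22810 probe sets, log2(value + 6.139) was computed. The added constant is the median, over arrays, of the 20th percentile, and it makes folds of dim genes too small. Tests covered the 15808 probe sets that exceeded the 40th percentile on all arrays of 1 or more sets. They used limma 3.58.1 (R 4.3.3), with all 20 sets in 1 model, 40 residual degrees of freedom, intensity-trended empirical Bayes and Benjamini-Hochberg adjustment, for 16 comparisons. Differences are log2 ± SE, and signals are mean ± SD. For counts at an unadjusted p below 0.05 no share of all tested probe sets was computed, so they cannot be weighed against one. The code was tested on simulated data.

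The 5 genes and all lists were chosen with earlier results of these data known. The rule for names took the 5 genes, other autophagy genes called in the senescing or cauline comparisons, and for each of the 5 the 3 named probe sets of highest r. Autophagy genes called in other comparisons were named after their values were seen. The annotation supplied with the array names 1 gene for 13513 probe sets, several for 503 and none for 8730, and 13436 of the 13513 matched a RefSeq locus. No listed flower or vascular marker had a probe set annotated to 1 gene. The alternatives changed the pseudocount (1, or 4 times larger), the filter (none, or the 60th percentile), the normalization (quantile), the array weights, the replicate block, the sets in the fit, the partner sets, the form of the leaf trend and the place of the first array of set 14, or left out single arrays. Python 3.11.15 with matplotlib 3.10.9 drew the figures.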

Additional observations from a re-analysis of the deposited data

How the results depend on the processing

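Most values kept their side of the threshold. Of member differences, 673 of the values under other settings and 817 of those with an array left out kept both their sign and their call. A pseudocount 4 times larger lowered many counts of called probe sets by over 1.5 times: 3642 to 2392 for leaf position, 2313 to 1456 for cauline against rosette leaves, 2620 to 1715 for senescing against cauline leaves, 624 to 356 and 604 to 334 for gl1T in leaves 4 and 12, 1297 to 796 for their difference, 1095 to 529 for the petiole, 98 to 24 for the distal blade, 3866 to 2564 for rosette leaf 4 against the 1 cm leaf, 1821 to 1092 for leaves 1 and 2, 514 to 248 and 68 to 14 between the short-day sets, 2649 to 1664 for short-day rosettes and 1140 to 619 for sucrose medium. A pseudocount of 1 gave 210 for the distal blade, 789 and 154 between the short-day sets, and 1 called gene in place of 0 on sucrose medium. Of the 5 genes, 0 instead of 1 were called between senescing and cauline leaves with the larger pseudocount (ATG8H at 0.87) and with array weights (ATG8H at 0.97), and 0 to 2 as arrays were left out. On sucrose medium 0 to 1 were called as arrays were left out. Senescing against rosette leaves stayed within that limit, at 3615 (partner leaf 2 alone) to 6876 (leaf 12 alone) called probe sets around 5227. For cauline leaves the partner leaf 2 alone gave 1477 called probe sets and 0 of the 5 genes, and leaf 12 alone gave 4467 probe sets. The sign turned only for differences that were not called: for ATG8F in senescing leaves, -0.10 against leaf 2 in place of the rosette mean, and 0.28 against leaf 2 with quantile normalization; for ATG3 in the distal blade, -0.0096 with quantile normalization; and for ATG8B between short-day sets 89 and 87, 0.025 with array weights. With arrays left out the sign turned within the ranges -0.20 to 0.22 (ATG8H, gl1T leaf 4), -0.11 to 0.022 (APG8A, gl1T leaf 12), -0.0037 to 0.10 (ATG8F, gl1T leaf 12), -0.13 to 0.024 (ATG3, gl1T difference), -0.041 to 0.080 (ATG3, distal blade), -0.086 to 0.050 (ATG8B, short-day sets 89 and 87), -0.16 to 0.039 (APG8A, sets 90 and 89) and -0.097 to 0.034 (ATG3, sets 90 and 89). The cause was not tested. The replicate letter as a block changed no count of called genes among the 5, and its largest shift was from 68 to 72 called probe sets between sets 90 and 89. Deviations of arrays with the same letter had a median r of 0.0009, and 22 of 59 arrays correlated best with their own letter. Single outlying arrays were not tested for, since that test needs groups of 4. Signal over background limits ATG8H and ATG8B most, which were dim in several sets.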
